A study of Mus musculus with 3 samples.

Results

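The genes of cholesterol and fatty acid synthesis are followed here through mT3-2D-GFP, a KPC pancreatic tumour line of C57BL/6 mice that carries green fluorescent protein (GFP), and through tumours this line formed in mice. A gene was a member if its symbol is 1 of 36 listed names. All 36 had a value in the authors' deposited table, as 49 of its 17910 transcripts and 36 of its 11886 genes. They divide into 18 sterol synthesis enzymes, 6 genes that sense sterols, move them or carry the SREBP switch, and 12 fatty acid synthesis enzymes. KPC names a genetically engineered mouse model of pancreatic cancer, and the labels give no alleles of the line.

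The 3 groups were the line cultured in Dulbecco's modified Eagle medium with heat-inactivated fetal bovine serum and L-glutamine, GFP-positive cells sorted from tumours in B6.CB17-Prkdcscid/SzJ (SCID) mice, a strain without mature T and B cells, and GFP-positive cells sorted from tumours in C57BL/6 (WT) mice. Equal amounts of RNA were pooled, from 5 tumours for the SCID group and 6 for the WT group, so each of the 3 groups had 1 library and the spread between animals was not measured. The labels used here state no age, sex or time of growth. The sorted cells passed through a tumour and a sorter and the cultured cells are not described as sorted, so growth in the animal, growth medium and handling cannot be told apart in any comparison with the line.

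Every gene value below is a log2 fold change between libraries from the authors' deposited table, averaged over the transcripts of the gene. With 1 library per group nothing could be tested, no p-value is given, and higher or lower describes these libraries only. A gene was counted as past the threshold at 2-fold, a log2 value of 1 or more in size. The deposited values run only from -2.49 to 2.77, and how they correspond to read ratios is not stated, so folds are quoted on the table's own scale. The table holds no counts or levels, so the depth of each library is unknown beyond a stated mean of 40000000 reads per sample. For a sense of how far values of the same gene can differ, the pooled SD between transcripts of 1 gene was 0.33 for SCID minus the line, 0.31 for WT minus the line and 0.22 for WT minus SCID, over 3598 genes with more than 1 transcript.

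Mammalian cells build cholesterol from acetyl-CoA by way of mevalonate, farnesyl diphosphate and squalene, and build fatty acids from the same acetyl-CoA through malonyl-CoA. Both branches are controlled by SREBP transcription factors, which are held in the endoplasmic reticulum with SCAP and INSIG proteins while sterols are plentiful and are carried to the Golgi and cut free when sterols run low. SREBP-2 acts mainly on sterol genes and SREBP-1c mainly on fatty acid genes, and proliferating tumour cells draw on both branches for membranes.

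All 30 enzymes of the sterol and fatty acid branches were lower in both sorted pools than in the cultured line. The sterol synthesis enzymes had a median of -0.57 in SCID minus the line (1.48-fold lower) and -0.49 in WT minus the line, and the fatty acid synthesis enzymes -0.56 and -0.43. The median of all 11886 genes was -0.02 and -0.01, and 51.7% and 51.4% of them lay below 0. Few members were far from 0. In SCID minus the line 1 of 18 sterol enzymes and 2 of 12 fatty acid enzymes were lower by 2-fold or more, where 2.62% of all genes were, and in WT minus the line 0 and 1 were, where 2.03% of all genes were. None was higher by 2-fold, against 3.65% and 4.12% of all genes. At 1.5-fold, 8 of 18 sterol and 6 of 12 fatty acid enzymes were lower in the SCID pool, beside 9.43% of all genes, and 4 and 5 in the WT pool, beside 8.36%. The members shared a direction and a moderate size more than a count past 2-fold. The comparisons with the line share the line's library, so the like signs in the 2 pools are not separate observations.

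**Figure D1:**
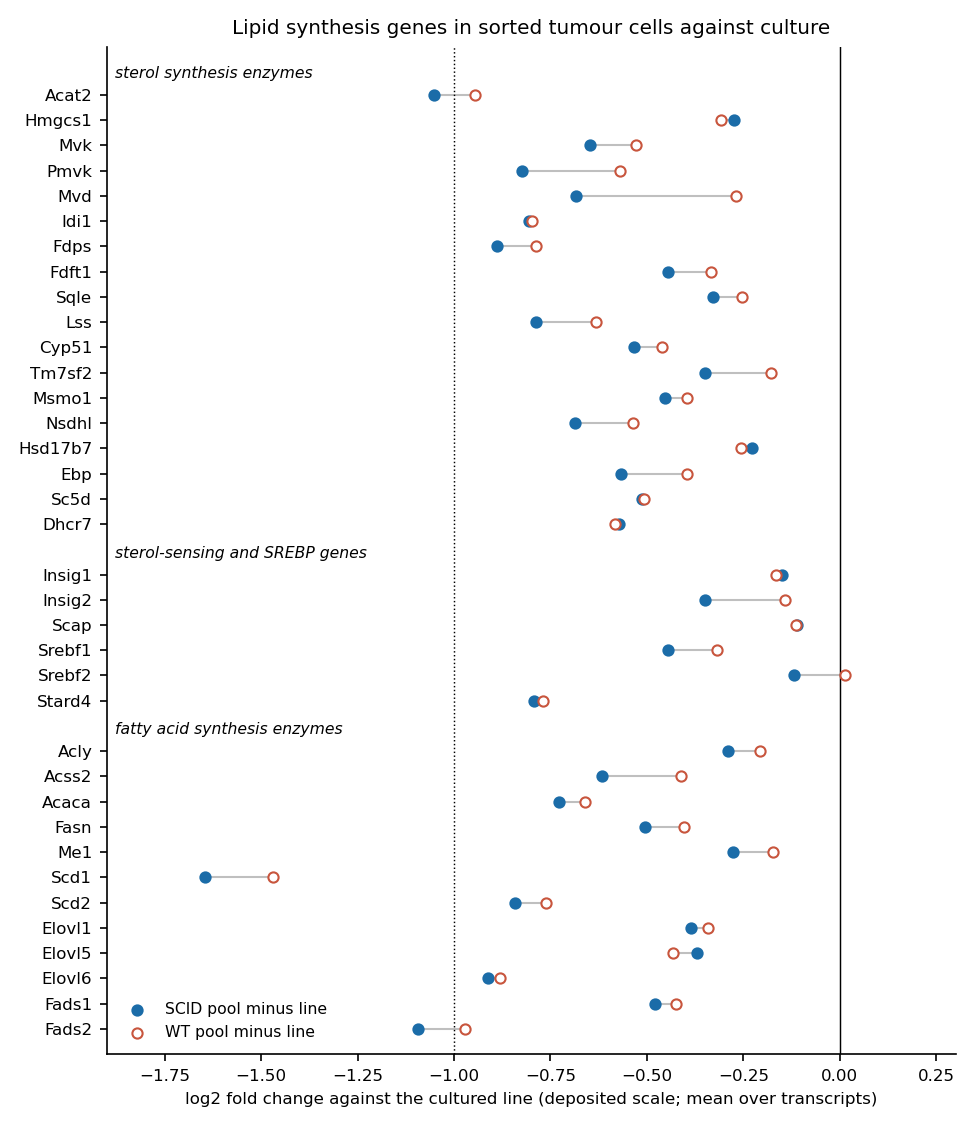
Log2 fold change (deposited scale) of each of the 36 genes in the SCID pool minus the cultured line (filled circles) and the WT pool minus the line (open circles), in pathway order, 1 library per group; the dotted line marks 2-fold lower. All points lie below 0 except Srebf2 in WT minus the line, at 0.01, and Scd1 stands farthest left in both.

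The first steps of the sterol branch held most of its larger differences. The 7 enzymes from thiolase to farnesyl diphosphate had a median of -0.80 in SCID minus the line and -0.57 in WT minus the line, and the 11 enzymes from squalene onward -0.51 and -0.40. Acat2, the cytosolic thiolase that joins acetyl-CoA units, was lowest, at -1.05 in the SCID pool (2.07-fold) and -0.95 in the WT pool. Its place in the authors' deposited table is chr17:12943042-12960725 on the reverse strand. Of the 2176 windows of 75 bases (1 read length) in its transcripts, 40.7% also occur in its close copy Acat3, which was at -0.52 and -0.45. How reads were split between the 2 genes is not stated, and whether the split bears on the Acat2 value was not tested. Of the 7 early enzymes, Idi1 and Fdps also share 10% or more of their windows. The others were Hmgcs1, Mvk, Pmvk and Mvd. In SCID minus the line they were at -0.27, -0.65, -0.82 and -0.68, beside the later enzymes' median of -0.51. In WT minus the line they were at -0.31, -0.53, -0.57 and -0.27, beside -0.40. The Mvd values are means with a non-coding transcript, and its coding transcript was at -1.10 and -0.91. The split into early and later enzymes was not recomputed under alternatives.

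Hmgcs1, which makes HMG-CoA and is a textbook SREBP-2 target, differed little, at -0.27 in the SCID pool and -0.31 in the WT pool. Its 2 transcripts were at -0.21 and -0.34 in SCID minus the line and at -0.16 and -0.45 in WT minus the line. Mvk, mevalonate kinase, was at -0.65 and -0.53, and Pmvk, phosphomevalonate kinase, at -0.82 and -0.57. Pmvk was thus the sterol enzyme with 1 transcript that differed most between the pools.

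Mvd, mevalonate diphosphate decarboxylase, depended on the transcript. Its coding transcript NM_138656 was at -1.10 in SCID minus the line and -0.91 in WT minus the line, among the lowest sterol values, while its non-coding transcript NR_028354 was at -0.27 and 0.37. Both have the same start and end in the table, chr8:122433596-122443422, so their reads overlap. The mean of the 2, -0.68 and -0.27, is the gene value used in the counts. With coding transcripts only, 2 of 18 sterol enzymes were lower by 2-fold in SCID minus the line, beside 2.78% of genes.

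Idi1, isopentenyl diphosphate isomerase, was at -0.80 in both pools. Fdps, which makes farnesyl diphosphate, the branch point to sterols and to prenyl groups, was at -0.89 and -0.79, and its 2 transcripts at -0.87 and -0.91 in the SCID pool and -0.75 and -0.82 in the WT pool lay close together. Both share sequence with other annotated genes, most of them unnamed gene models: 20.7% of the windows of Idi1 and 74.8% of those of Fdps. For Fdps the first of these is Gm43738, whose exons overlap 26.7% of the Fdps exon bases on the same strand. Some of the shared windows may thus be the same stretch of genome annotated under both names. A single read from a shared window could not be assigned to 1 gene by sequence alone.

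From squalene onward the values were more even. Fdft1, squalene synthase, was at -0.45 and -0.33. Of its annotated exon bases, 18.3% lie opposite exons of Ctsb, a cathepsin gene at 0.47 and 0.84, and the strand setting used in counting is not stated. Sqle, squalene epoxidase, an oxygen-dependent control step of the branch, was at -0.33 and -0.25. Lss, lanosterol synthase, which closes the sterol rings, was lowest of these 11, at -0.79 and -0.63. None of these 3 passed 2-fold, and Lss was the only enzyme after farnesyl diphosphate past 1.5-fold in both pools.

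The demethylating and reducing steps that follow stayed between -0.69 and -0.18. Cyp51, lanosterol demethylase, was at -0.53 and -0.46, Msmo1, the C4-methyl oxidase, at -0.45 and -0.40, and Nsdhl, the C4 decarboxylating dehydrogenase, at -0.69 and -0.54. Hsd17b7, which acts in the same C4 complex as the ketoreductase, was nearest to 0 in the SCID pool, at -0.23 and -0.26. Tm7sf2, a sterol reductase, was at -0.35 and -0.18. The last steps lay close to each other: Ebp, the sterol isomerase, was at -0.57 and -0.40, Sc5d, the sterol desaturase, at -0.51 in both pools, and Dhcr7, the final reductase, at -0.57 and -0.58.

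The 6 control genes had medians nearer to 0 than the enzymes, although Stard4 was at -0.79 and -0.77. Their median was -0.25 in SCID minus the line and -0.15 in WT minus the line. In either direction 0 of 6 passed 2-fold. Of all genes, 2.62% were lower and 3.65% higher by that much in SCID minus the line, and 2.03% and 4.12% in WT minus the line. The count of 0 therefore does not set these 6 apart. Srebf2, encoding SREBP-2, was at -0.12 and 0.01, near the median gene, and at -0.27 and -0.21 once a trend in GC content and transcript length was removed, so its sign in the WT pool depends on that step. Srebf1, encoding the SREBP-1 forms, was at -0.45 and -0.32 (-0.58 and -0.52 after the same step), and its 2 transcripts at -0.54 and -0.35 in the SCID pool. Scap, the escort of SREBP, was at -0.11 in both pools, with 1 transcript at 0.01 and the other at -0.24 in the SCID pool.

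The INSIG anchors were at smaller values than most enzymes. Insig1, the sterol-responsive anchor and an SREBP target itself, was at -0.15 and -0.16. Insig2 was at -0.35 and -0.14, with 3 transcripts that ran from -0.51 to -0.06 in SCID minus the line and from -0.17 to -0.11 in WT minus the line. Stard4, a sterol-regulated carrier of cholesterol between membranes, stood apart from the other 5, at -0.79 and -0.77, with its 2 transcripts at -0.72 and -0.87 in the SCID pool. It was the only control gene past 1.5-fold in either pool. Of all genes, 9.43% were lower by that much in SCID minus the line and 8.36% in WT minus the line.

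The largest differences of all members were in fatty acid desaturases. Scd1, stearoyl-CoA desaturase 1, which makes oleate and palmitoleate, was at -1.65 in SCID minus the line (3.13-fold lower) and -1.47 in WT minus the line (2.77-fold lower), the 46th and the 81st lowest of 11886 genes. Fads2, the delta-6 desaturase of polyunsaturated fatty acids, was at -1.09 and -0.97, just inside and just outside the 2-fold threshold. Scd2, the form of stearoyl-CoA desaturase known from brain and from embryos, was at -0.84 and -0.76. Fads1, the delta-5 desaturase, was less far from 0, at -0.48 and -0.43. The median of the 4 desaturases was -0.97 and -0.87.

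These 4 desaturase genes lie in 2 pairs on chromosome 19. Scd2 (chr19:44293676-44306862, forward strand) and Scd1 (chr19:44394450-44407709, reverse strand) are 87587 bases apart, and Fads2 (chr19:10064164-10101503, reverse strand) and Fads1 (chr19:10182888-10196872, forward strand) 81384 bases apart. Within each pair the member on the reverse strand had the larger difference. Scd1 and Scd2 share few read-length windows with other genes, 3.24% and 1.80%, and Fads1 and Fads2 none. The next gene of the second cluster, Fads3, no member of the list and looked up after the values were seen, was at -0.65 and -0.64.

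Among the 3 elongases, Elovl6, which lengthens palmitate to stearate and so supplies the desaturase, was at -0.91 and -0.88. Elovl5, which lengthens polyunsaturated chains, was at -0.37 and -0.43, and Elovl1, which makes very long saturated chains, at -0.39 and -0.34. The 3 transcripts of Elovl1 ran from -0.50 to -0.29 in the SCID pool and from -0.62 to -0.04 in the WT pool, in the WT pool a spread wider than the gene's own difference.

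The 2 enzymes that make palmitate had a median of -0.62 and -0.53, nearer to 0 than that of the desaturases, although Acaca was lower than Fads1 in both pools. Acaca, acetyl-CoA carboxylase 1, which makes malonyl-CoA, was at -0.73 and -0.66, and 50% of its read-length windows occur in the gene model Gm5182. Fasn, fatty acid synthase, was at -0.51 and -0.40, or -0.79 and -0.75 after removal of the GC and length trend. Of the suppliers, Acss2, which makes acetyl-CoA from acetate, was at -0.62 and -0.41, and Acly, ATP citrate lyase, which makes it from citrate, at -0.29 and -0.21, with 2 transcripts that agree to the second decimal. Me1, malic enzyme, which yields NADPH, was at -0.28 and -0.17 as the mean of 2 transcripts of opposite sign, NM_008615 at -0.72 and -0.61 and NM_001198933 at 0.17 and 0.26.

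**Figure D2:**
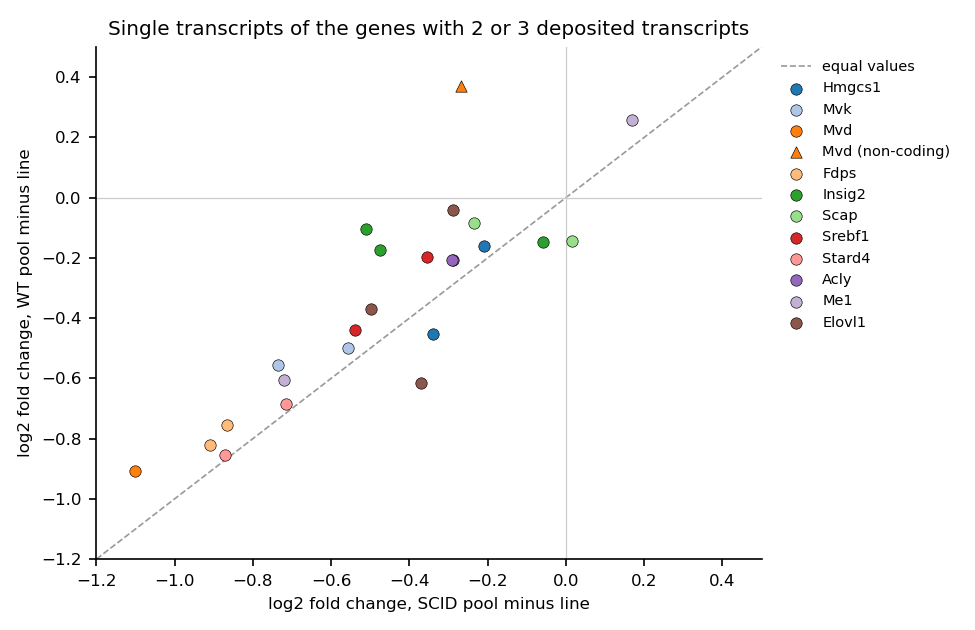
Each point is a deposited transcript of 1 of the 11 genes with 2 or 3 transcripts, with its log2 fold change in SCID minus the line (horizontal) and WT minus the line (vertical); the triangle is non-coding and the dashed line marks equal values. The non-coding Mvd transcript at -0.27 and 0.37 and the Me1 transcript at 0.17 and 0.26 are the points above 0 on the vertical axis.

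Promoters were read because nearly all members lay on 1 side of 0 against the line. RefSeq sequence on GRCm38.p6 from 250 bases before to 50 after a start was found for 29 of 36 members, 15 of 18 sterol enzymes, 5 of 6 control genes and 9 of 12 fatty acid enzymes. The windows of 5 genes are printed from 250 bases before the start up to the base before it, 5′ to 3′ on the strand of the gene, chosen after the values were seen: Hmgcs1 for its motif, Acat2 and Idi1 as sterol enzymes and Fads2 and Elovl6 as fatty acid enzymes with large differences. Capitals mark matches on either strand to CCAAT (the NF-Y box, ATTGG when reversed), GGGCGG (the GC box, CCGCCC when reversed) and TCACNCCAC (a form of the sterol regulatory element). They lie at chr13:119690101-119690350 (+ strand), chr13:8885356-8885605 (+ strand), chr17:12960726-12960975 (- strand), chr19:10101504-10101753 (- strand) and chr3:129532136-129532385 (+ strand).
Hmgcs1: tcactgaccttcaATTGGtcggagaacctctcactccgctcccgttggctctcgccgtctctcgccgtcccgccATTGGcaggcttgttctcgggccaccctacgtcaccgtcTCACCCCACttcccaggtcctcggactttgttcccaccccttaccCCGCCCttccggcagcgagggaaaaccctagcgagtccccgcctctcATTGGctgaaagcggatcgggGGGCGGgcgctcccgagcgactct
Idi1: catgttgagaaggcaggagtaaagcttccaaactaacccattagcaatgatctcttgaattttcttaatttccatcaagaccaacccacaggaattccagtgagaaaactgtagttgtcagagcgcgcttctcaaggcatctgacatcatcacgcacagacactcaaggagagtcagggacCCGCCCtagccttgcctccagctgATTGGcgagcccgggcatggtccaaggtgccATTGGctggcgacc
Acat2: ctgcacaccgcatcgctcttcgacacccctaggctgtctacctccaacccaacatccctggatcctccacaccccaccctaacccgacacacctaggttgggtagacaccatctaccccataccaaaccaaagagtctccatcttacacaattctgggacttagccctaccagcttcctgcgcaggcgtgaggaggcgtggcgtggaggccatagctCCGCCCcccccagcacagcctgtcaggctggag
Fads2: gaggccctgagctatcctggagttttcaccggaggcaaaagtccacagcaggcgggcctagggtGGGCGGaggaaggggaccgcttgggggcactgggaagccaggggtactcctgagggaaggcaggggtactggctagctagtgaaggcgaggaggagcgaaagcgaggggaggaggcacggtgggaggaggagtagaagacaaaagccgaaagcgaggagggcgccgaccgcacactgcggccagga
Elovl6: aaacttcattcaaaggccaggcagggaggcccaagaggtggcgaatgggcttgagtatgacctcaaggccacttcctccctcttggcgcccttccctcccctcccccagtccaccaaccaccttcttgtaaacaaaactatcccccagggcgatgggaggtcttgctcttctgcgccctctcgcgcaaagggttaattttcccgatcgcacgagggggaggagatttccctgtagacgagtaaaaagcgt

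The CCAAT box was present in 14 of 15 sterol enzymes with a promoter, Acat2 being the exception, in 4 of 5 control genes and in 6 of 9 fatty acid enzymes. It occurs in 43.3% of the 9279 genes of the table that have a promoter and in 37.4% of all 32851 promoters. The GC box was found in 14 of 15, 5 of 5 and 5 of 9, beside 70.3% of those genes and 35.7% of all promoters. TCACNCCAC was found only in Hmgcs1, as TCACCCCAC starting 137 bases before the start, and occurs in 1.39% of those genes and 1.24% of all promoters. Thus the Hmgcs1 window holds 1 sterol element, 3 CCAAT boxes and 2 GC boxes, Idi1 2 CCAAT boxes and 1 GC box, Acat2 and Fads2 1 GC box each, and Elovl6 none of the 3. With that match in 1 of 29 members, the sterol element cannot be set against the size of the differences. Whether any motif went with that size was not tested. Fdps, Fdft1, Sqle, Stard4, Scd1, Scd2 and Fads1 had no promoter to read.

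Of the other motifs searched on both strands, TCACCCCAC is a case of TCACNCCAC and was found in 0.722% of genes of the table, and TCANNCCA, a looser form that contains it, in 7 of 29 members and 14.8% of genes. The E-box CACGTG was found in 6 of 29 members and 12% of genes, and CAGGTG in 8 of 29 and 20.5%. In all promoters these shares were 0.551%, 15.7%, 7.15% and 20.2%. A match describes letters in these windows and says nothing of binding.

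The WT pool differed little from the SCID pool in these genes, and mostly in 1 direction. In WT minus SCID 15 of 18 sterol enzymes, 4 of 6 control genes and 11 of 12 fatty acid enzymes were above 0, where 51.5% of all genes were, with medians of 0.10, 0.08 and 0.08 beside 0.0044 for all genes. None of the 36 passed 2-fold, beside 0.303% of all genes higher and 0.0168% lower by that much, and none passed 1.5-fold (1.10% and 0.177%). For 34 of 36 the value was smaller than the 0.22 pooled SD between transcripts of a gene. Against the line, 8 of 36 were within the SD of 0.33 in the SCID pool and 11 within 0.31 in the WT pool. These SDs do not measure the spread between libraries or animals, and 25 of the 36 members have 1 transcript. The SCID library enters WT minus SCID and SCID minus the line with opposite signs, so the 2 comparisons are not independent.

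Pmvk at 0.26 and Mvd at 0.41 were the 2 members beyond the SD of 0.22 in WT minus SCID. For Mvd the coding transcript was at 0.19 and the non-coding one at 0.64. Next were Insig2 at 0.21, with transcripts from -0.09 to 0.41, Acss2 at 0.21, Scd1 at 0.18, Ebp and Tm7sf2 at 0.17, and Lss at 0.16. Nsdhl was at 0.15, and Srebf1 and Srebf2 were alike, both at 0.13. Those below 0 were Elovl5 at -0.06, Hmgcs1 and Hsd17b7 at -0.03, Insig1 at -0.02, Dhcr7 at -0.01 and Scap at -0.0037. Hmgcs1 was at 0.02 and Hsd17b7 at 0.01 after removal of the GC and length trend.

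**Figure D3:**
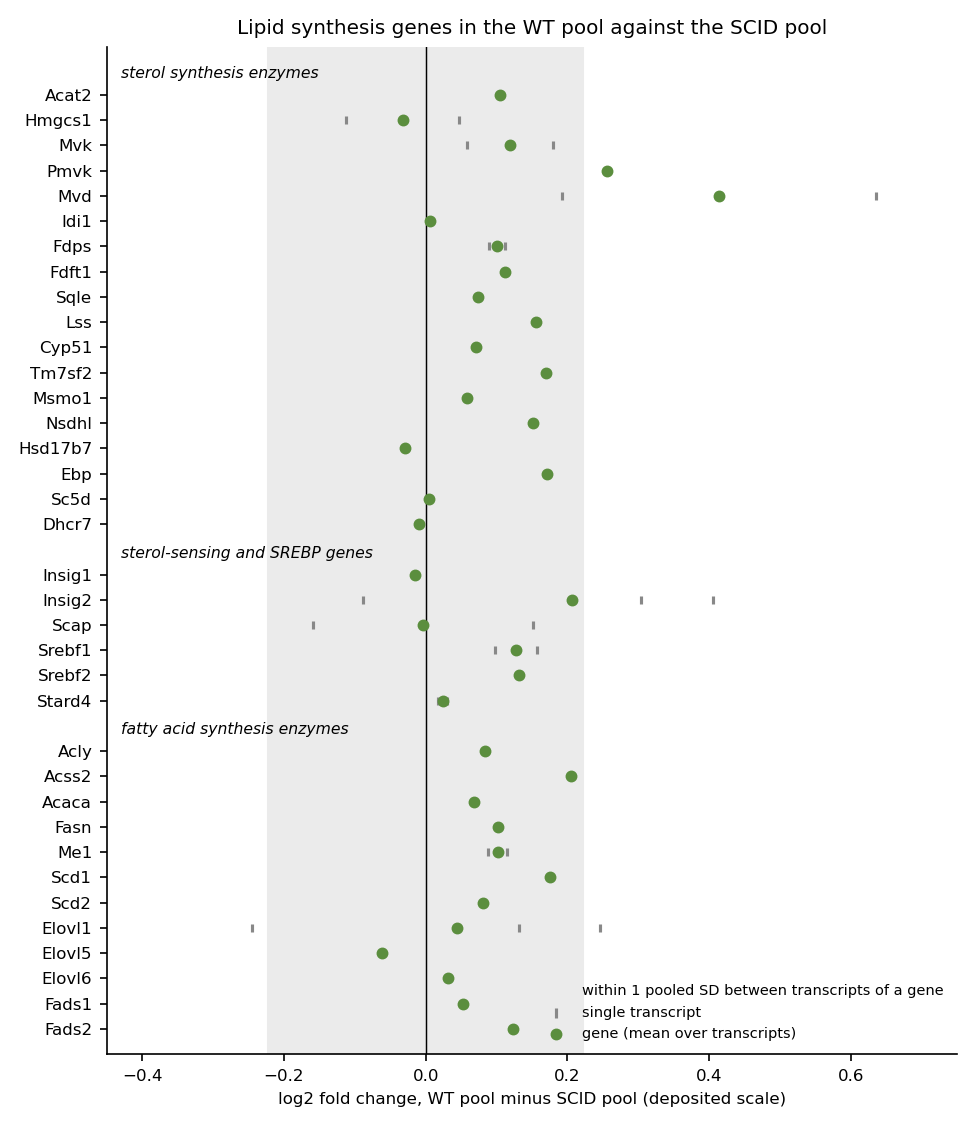
Log2 fold change (deposited scale) of each gene in the WT pool minus the SCID pool (circles, mean over transcripts) with its single transcripts (ticks); the grey band is 1 pooled SD between transcripts of a gene, 0.22, to each side of 0. Of 36 genes 30 lie above 0, and only Pmvk at 0.26 and Mvd at 0.41 lie outside the band.

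**Figure D4:**
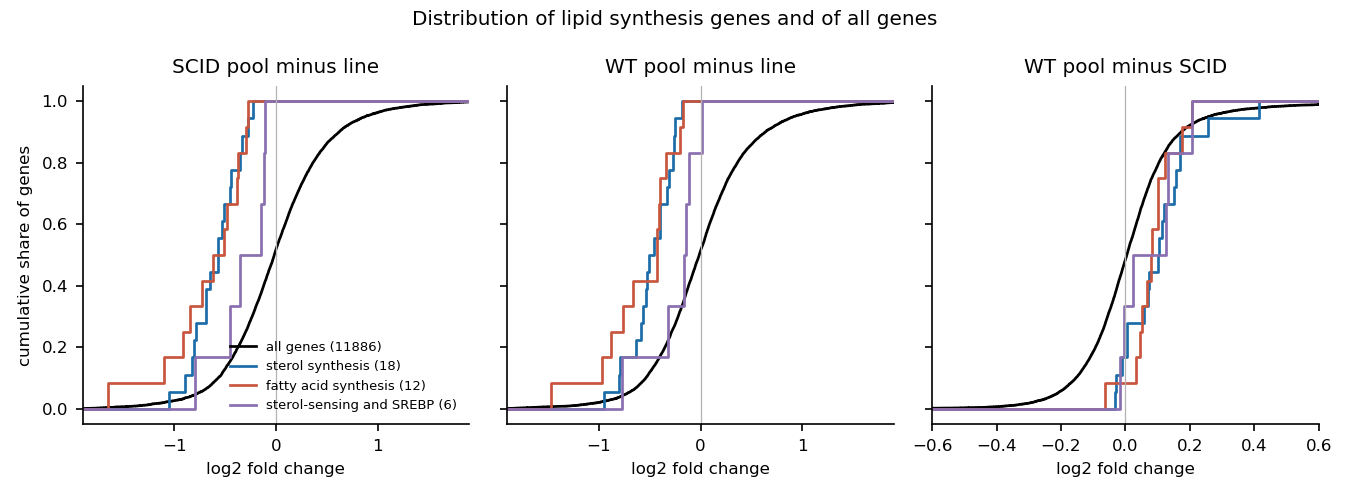
Cumulative share of genes (vertical) at or below each log2 fold change (horizontal) for all 11886 genes and the 3 groups of members, in SCID minus the line, WT minus the line and WT minus SCID. Both enzyme groups lie to the left of all genes against the line, with medians near -0.5, and slightly to the right in WT minus SCID, with medians of 0.10 and 0.08.

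Other genes of lipid metabolism, from lists written with earlier results of these data known, were set beside the members. A list meant to hold further genes of sterol synthesis and its electron supply had 8 of 9 measured genes below 0 in both comparisons with the line. Its medians were -0.49 and -0.35. Lbr, a sterol reductase of the inner nuclear membrane, was lowest, at -1.02 and -0.93, then Cyb5b, a cytochrome b5, at -0.59 and -0.47. Por, the reductase that feeds electrons to Cyp51 and Sqle, was highest, at 0.13 and 0.15. Fam213a was at -0.03 and -0.02. It has no established part in sterol synthesis or its electron supply, although it counts among the 8 and in the medians. Genes that cut, carry or degrade the SREBP machinery lay around 0, with medians of 0.05 and 0.02 over 16 genes. Among them Mbtps2, the site-2 protease, was at -0.27 and -0.45, Ube2g2, a ubiquitin-conjugating enzyme, at -0.22 and -0.14, Sec23a, of the COPII coat, at 0.30 and 0.15, and Syvn1, a ubiquitin ligase of the endoplasmic reticulum, at 0.47 and 0.53.

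Enzymes that lead from the mevalonate pathway to other isoprenoids had medians of -0.11 and -0.13 over 17 genes, nearer to 0 than the sterol enzymes. Pdss2 and Coq2, of ubiquinone synthesis, were lowest, at -0.82 and -0.62 in SCID minus the line and -0.55 and -0.61 in WT minus the line. Dpm1, of dolichol phosphate mannose synthesis, was at 0.57 and 0.52, and Ggps1, which makes geranylgeranyl diphosphate, at 0.22 and 0.13. Sterol uptake and transport genes ran both ways. Of 19 measured, 11 were below 0 in the SCID pool and 9 in the WT pool, with 2 and 1 higher by 2-fold. Lrp1, a large endocytic receptor, was at 1.38 and 1.39 and Vldlr, a lipoprotein receptor, at 1.21 and 0.79, while Tmem97, a sterol-regulated partner of NPC1, was at -0.94 and -0.87.

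On the fatty acid side, 19 further synthesis genes had medians of -0.26 and -0.20 and none passed 2-fold. Scd3, a further stearoyl-CoA desaturase, was at -0.71 and -0.74, Acsl1, an acyl-CoA synthetase, at -0.69 and -0.37, Acsl4 at 0.34 and 0.16, and Acsl6 at 0.53 and 0.28. Genes that supply NADPH had medians of -0.51 and -0.44 over 11 genes, led by Mthfd1, of folate metabolism, at -1.03 and -0.94 and Nadk, NAD kinase, at -0.93 and -0.77. Aldh1l1, a folate dehydrogenase, was higher by 2-fold, at 1.87 and 1.78, and Idh2, isocitrate dehydrogenase 2, at 0.03 in both, and Pgls, of the pentose phosphate pathway, at 0.05 and -0.05, lay near 0. Fatty acid oxidation, the opposing pathway, had 19 of 24 genes below 0 in SCID minus the line and 18 in WT minus the line, with medians of -0.16 and -0.17 and none past 2-fold. Etfb and Eci1 were at -0.54 and -0.49 in the SCID pool, and Ppara and Cpt1c at 0.28 and 0.33. No list was tested against the members, so these medians are set side by side only.

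**Figure D5:**
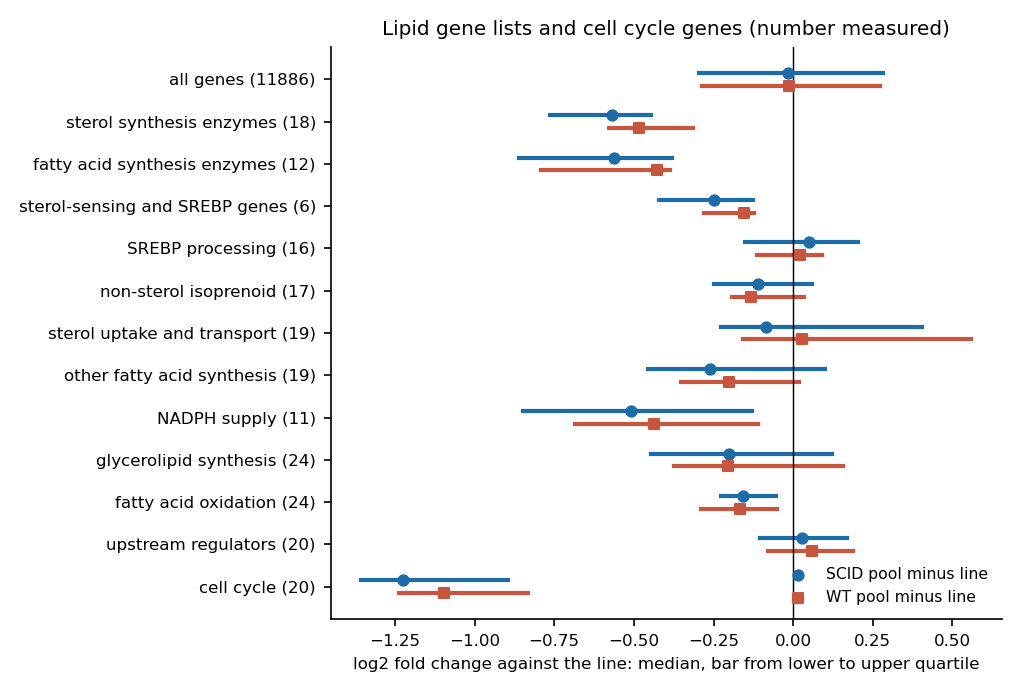
Median log2 fold change against the cultured line (points) and the range from lower to upper quartile (bars) of all genes, the 3 groups of members, 8 other lists of lipid genes and regulators, and cell cycle genes, for the SCID pool and the WT pool; the number of genes is in brackets. The 2 enzyme groups and NADPH supply have medians from -0.57 to -0.43, cell cycle genes -1.23 and -1.10, and SREBP processing 0.05 and 0.02. The list of further sterol synthesis genes, with medians of -0.49 and -0.35, is not drawn. Neither are the lists of LXR signalling and sterol efflux and of lipid droplets and lipolysis.

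Cell cycle genes and markers of other cells also differed between the libraries. All 20 cell cycle genes were below 0 in both comparisons with the line, 13 and 12 of them lower by 2-fold, from Rrm2 at -1.82 and -1.86 to Mcm7 at -0.14 and -0.05, with medians of -1.23 and -1.10, and 17 of 20 were above 0 in WT minus SCID with a median of 0.08. Of 18 macrophage and monocyte markers 6 were measured, and the defining markers Csf1r, Adgre1 and C1qa had no value. The 6 ran from -0.06 to 1.02 in the SCID pool and from 0.77 to 2.77 in the WT pool, and all 6 were higher in the WT pool, from 0.80 to 1.88. All 3 measured of 12 fibroblast markers and all 3 of 9 endothelial markers were above 0 against the line, from 0.63 to 2.61 and from 0.80 to 1.66 over both pools. Of 11 markers of adipocytes, which are rich in Scd1 and Fasn, 4 were measured, with Cidec at -0.78 and -0.89, Pparg at -0.67 and -0.60 and Plin4 at 0.25 and 0.20. Lpl, lipoprotein lipase, which macrophages also make, was at -0.78 in SCID minus the line and 0.48 in WT minus the line, a WT minus SCID value of 1.26, where the other 3 ran from -0.12 to 0.06. The 3 T and NK cell markers measured lay between -0.63 and 0.36, and Cela1, the 1 measured of 13 acinar and islet markers, was at 0.90 and 0.66. The 8 epithelial markers all had values, from Krt7 at -1.18 and -0.99 to Epcam at 1.25 and 1.59, but a table of fold changes cannot show how abundant any of them was. The part that cell growth or admixed cells had in the lipid gene values was not tested, and a smaller share of tumour cells in a pool cannot be told apart from less RNA per cell.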

How the data were processed

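RNA-seq libraries from poly(A) RNA, stranded and read in pairs of 75 bases, were made from 1 cultured line and 2 pools of sorted cells, per the labels' protocols. The deposited values are log2 fold changes of 1 library over another, for 17910 RefSeq transcripts (16810 coding, 1100 non-coding); the header names no log base, and log2 was read from DESeq2 1.20.0 in the submitters' processing notes, which also list BWA, Partek, R 3.5.1 and mm9 with no role or order. The sources used here do not give the function, any shrinkage, the strand setting or row filters. The column that names only SCID equalled the SCID column minus the WT column apart from rounding of about 1e-14, and its negative was used as WT minus SCID.

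Gene values are means over transcripts, computed with Python 3.11.15, pandas 2.3.3 and numpy 2.4.6; 8288 genes have 1 transcript. The counting step was tested on simulated data. Of 16697 transcripts matched to GENCODE vM21 (GRCm38), 16675 had the same chromosome and strand and 15437 a start within 1000 bases, so coordinates are given as GRCm38 although the notes name mm9, with ends taken as 1 below the stop (equal to the annotated end in 5518). Overlap between genes was counted as windows of 75 bases shared between GENCODE transcripts. Members and lists were chosen with earlier results of these data known. The named genes are all members, the 2 highest and 2 lowest of each further list in SCID minus the line, and the extremes of marker lists; a few genes it picks are not reported here, and others were named after their values were seen. Alternatives were the median or farthest transcript, coding transcripts, genes with 1 transcript, centring, residuals from a quadratic fit on GC content and log10 length (93.2% of transcripts), leaving out the farthest member, thresholds of 1.5-fold and 4-fold and, chosen after seeing the data, leaving out the 5 members that share 10% or more of their windows with another gene. A summary was counted as moved when it changed by over 1.5 times and, for medians, by over 0.05.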

Additional observations from a re-analysis of the deposited data

Results flagged for a closer look

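Srebf2 was the only gene of the 36 whose 2 pools lay on opposite sides of the line, at -0.12 in the SCID pool and 0.01 in the WT pool, a WT minus SCID value of 0.13. Transcript NM_001001144 of Scap was at 0.01 and -0.14, a WT minus SCID value of -0.16, and the non-coding transcript NR_028354 of Mvd at -0.27 and 0.37, a value of 0.64. They are listed because the direction against the line differed between the host strains; with 1 library per pool the differences were not tested.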

How the results depend on the processing

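No paired analysis was possible because each group is 1 library, and no replicate could be left out. Of 179 values recomputed under alternatives, 155 did not move by the rule above and 24 moved. Many of the 155 are counts of 0, such as those of WT minus SCID at 2-fold, which the alternatives could hardly change. A median that changed by 0.05 or less was also not counted as moved, and the WT minus SCID medians are only 0.10, 0.08 and 0.08. The tally is therefore no measure of stability. No median changed sign, and what caused a move was not tested. No sterol enzyme median moved, and of the fatty acid enzyme medians 1 did (-0.66 in WT minus the line over the 9 genes with 1 transcript). The trend in GC content and length held 3.94%, 5.33% and 7.01% of the variance of the 3 comparisons. Its removal gave sterol medians of -0.58 and -0.47 against the line. The fatty acid enzyme medians changed more, from -0.56 and -0.43 to -0.71 and -0.63, and were not counted as moved. Their count lower by 2-fold in SCID minus the line went from 2 to 3, beside 2.9% of genes in that setting. In WT minus SCID the sterol enzyme median was 0.08 and 17 of 18 were above 0, beside 46.5% of genes in that setting. Counts of sterol enzymes 2-fold lower in SCID minus the line went from 1 to 2 with the farthest transcript or coding transcripts. In those settings 3.33% and 2.78% of genes were that low. The count became 0 without the farthest member (Acat2), without genes sharing windows with another gene or at 4-fold, and 8 at 1.5-fold. In WT minus the line the count went from 0 to 4 at 1.5-fold. For fatty acid enzymes in SCID minus the line the count of 2 became 1 without Scd1, 6 at 1.5-fold and 0 at 4-fold. In WT minus the line the count of 1 became 2 after trend removal (beside 2.32% of genes in that setting), 0 without Scd1 or at 4-fold, and 5 at 1.5-fold. The control genes were least stable. Their SCID minus line median of -0.25 became -0.37 with the farthest transcript, -0.13 for the 2 genes with 1 transcript and -0.15 without Stard4. In WT minus the line -0.15 became -0.075 with those 2 genes and -0.27 after trend removal, and in WT minus SCID 0.08 became 0.024 without Insig2, with 1 of the 2 single-transcript genes above 0. At 1.5-fold 1 control gene was lower against the line in each pool, beside 9.43% and 8.36% of all genes. Some of these settings hold fewer genes or another threshold, and others change the transcripts or the scale, and their parts in the changes were not told apart. With no counts, the limit that depth sets on each value is unknown.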

Other observations

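Glycerolipid synthesis, which uses the fatty acids made by these enzymes, had 16 of 24 measured genes below 0 in both comparisons with the line, with medians of -0.20 in each. Agpat2, an acyltransferase of phosphatidic acid synthesis, was at -0.99 and -0.92 and Agpat5 at -0.87 and -0.85, while Chkb, choline kinase beta, was at 1.11 and 1.06 and Chka at 0.68 and 0.46. Lipid droplet and lipolysis genes had medians of -0.13 and 0.07 over 8 genes, with Fitm2, of droplet formation, at -0.60 and -0.65, Bscl2, of the same process, at -0.20 and 0.06, on opposite sides of 0, and, at the other end, Hilpda, a hypoxia-inducible lipase inhibitor, at 0.56 and 0.41 and Lipe, hormone-sensitive lipase, at 0.12 and 0.32.

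Upstream regulators of SREBP activity and transcription cofactors had medians of 0.03 and 0.06 over 20 genes. Akt1 was at -0.39 and -0.46, Prkab1, a subunit of AMP kinase, at -0.28 and -0.23, Crtc2 at 0.35 and 0.38 and Rictor, of mTORC2, at 0.70 and 0.52. Of 15 genes of LXR signalling and sterol efflux 6 were measured, with Apoc2 at -1.94 and -1.43, Lpcat3, a phospholipid acyltransferase, at -0.56 and -0.59, Arl4c at 0.62 and 0.58 and Apoe, which macrophages also make, at 1.02 and 2.77. The median of these 6 was -0.14 and -0.04.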
